A study of Mus musculus with 10 samples.

Results

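Mitochondrial ribosomal protein genes were taken as every row of the deposited count table whose gene symbol is Mrpl or Mrps followed by a number and, at most, 1 letter. This gave 76 genes of the 17279 in the table, and all 76 were among the 16949 genes tested. Of these, 49 encode proteins of the large subunit, including Mrps30 and Mrps18a, whose proteins sit in the large subunit despite their names. A further 26 encode proteins of the small subunit. The remaining gene, Mrps36, carries a ribosomal name, but its protein is known as a component of the alpha-ketoglutarate dehydrogenase complex. The 76 genes lie on 17 chromosomes. Mrpl53 was not analysed here, and Mrpl58 was present only under its older symbol Ict1, which the rule on symbols leaves out.

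Mitochondria carry their own ribosome, which translates the few messenger RNAs of the mitochondrial genome into membrane subunits of the respiratory chain and of ATP synthase. Its ribosomal RNAs come from the mitochondrial genome, whereas its proteins are encoded in the nucleus, made in the cytosol and imported. Some of these proteins have counterparts in bacterial ribosomes, and others are found only in mitochondrial ribosomes. In macrophages, respiration and its rewiring are known to accompany activation and tissue residence.

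The data were RNA sequencing counts from macrophages of the small intestinal lamina propria of C57BL6/J mice, collected 24 h after sham surgery (5 libraries) or pMCAO surgery (5 libraries). In stroke research, pMCAO is permanent occlusion of the middle cerebral artery, and the series asks how stroke affects the transcriptome of these cells. Cells were sorted as CX3CR1-GFP+, a reporter for a chemokine receptor of macrophages, although the genotype label names the strain alone, and age and sex are not given in the labels. Replicate 1 of each group is marked as a pool by its name. The sham libraries held a total of 18894151 to 60665972 counts each (median 33913980), and the pMCAO libraries 6430643 to 28672285 (median 11605371). Counts of Xist, a transcript of the inactive X chromosome, set 2 libraries apart. Xist was at 1756 CPM (counts scaled by edgeR's TMM factors and the library total) in replicate 5 of the sham group, and replicate 4 of the pMCAO group had 4461 CPM. In the remaining 8 libraries Xist ranged from 1.39 to 4.92 CPM. Macrophage markers (12 of 12 genes tested, among them Cx3cr1, Csf1r, Adgre1 and C1qa) summed to 8368 to 18468 CPM in sham and 9078 to 17044 CPM in pMCAO. Of the 12 markers 7 had log2 differences above 0 (median 0.10), and Lyz2, the most abundant at 7469 CPM in sham and 5975 CPM in pMCAO, had −0.32.

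The regions upstream of 4 of these genes are shown as examples with and without the motifs counted over all promoters of the set. Mrps24 is the gene whose groups did not overlap, Mrpl9 and Mrpl10 are among the 6 genes with the smallest p, and Mrpl52 had the highest level per length. Each run is the upstream sequence, up to 120 bases, nearest to the RefSeq start that holds no annotated exon, read 5′ to 3′ on the strand of the gene (RefSeq, GRCm38.p6). Capitals mark the NRF-1 core (GCGCATGC or GCATGCGC) in Mrpl9 and Mrpl10 and the GABP site (CCGGAAG or CTTCCGG) in Mrpl52. The run of Mrps24, chr11:5707702-5707821 on the minus strand, holds none of the 5 motifs searched. The same is true of 49 of the 62 runs that could be read in this way, those of Mrpl28, Mrpl41 and Mrpl12 among them. The other runs are chr3:94443198-94443317 for Mrpl9, chr11:97041440-97041559 for Mrpl10 and chr14:54426789-54426908 for Mrpl52, all on the plus strand.
Mrps24: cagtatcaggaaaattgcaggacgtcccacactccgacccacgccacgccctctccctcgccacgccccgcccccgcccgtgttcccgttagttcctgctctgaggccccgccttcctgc
Mrpl9: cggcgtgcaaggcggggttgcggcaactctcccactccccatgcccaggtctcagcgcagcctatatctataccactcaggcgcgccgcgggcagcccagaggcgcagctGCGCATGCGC
Mrpl10: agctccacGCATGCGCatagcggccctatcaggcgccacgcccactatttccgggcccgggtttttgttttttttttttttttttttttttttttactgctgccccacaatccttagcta
Mrpl52: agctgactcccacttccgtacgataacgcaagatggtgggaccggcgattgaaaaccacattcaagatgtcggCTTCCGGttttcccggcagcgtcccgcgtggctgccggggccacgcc
NRF-1 and GABP (also called NRF-2) are transcription factors known for nuclear genes of mitochondrial proteins, and YY1 is a zinc finger factor that binds many housekeeping promoters. Of the 76 genes, 67 were matched by symbol in the RefSeq promoter table, which covers 250 bases before to 50 bases after each start. On either strand, the GABP site CCGGAAG was in the promoters of 24 of the 67 genes (35.8%), against 9.93% of the 27025 genes in the promoter table. That background is not limited to the 17279 genes of the count table, so it is of another kind than the 67 genes. The YY1 site AAGATGGC was in 12 (17.9%, against 3.19%), and the NRF-1 core GCGCATGC in 8 (11.9%, against 3.05%). The E-box CACGTG was in 5 (7.46%, against 8.09%), and the TATA box TATAAA was also in 5 (7.46%, against 15.7%). The median GC content of the promoter windows was 58.3% for these genes and 52.7% for all windows. The log2 difference between pMCAO and sham had a median of −0.27 in the 24 genes with the GABP site and −0.25 in the 43 without it. The 8 genes with the NRF-1 core had a median of −0.29, against −0.25 in the 59 without it. The 12 with the YY1 site had −0.13 (9 below 0), against −0.28 in the 55 without it (48 below 0). Differences between genes with and without a motif were not tested. These matches describe letters in the windows and were not tested as binding sites.

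In the bulk libraries the genes were detected throughout, with 0 of 76 at a count of 0 in any library. Together they took between 0.133% and 0.226% of all counts in sham and between 0.133% and 0.175% in pMCAO. The mean log2 CPM over the 76 genes was 4.29, 4.29, 4.31, 4.00 and 4.21 in sham replicates 1 to 5. In pMCAO replicates 1 to 5 it was 3.804, 4.23, 4.07, 3.68 and 3.91. The groups overlapped, since pMCAO replicates 2 and 3 lay above sham replicate 4, and pMCAO replicate 2 also lay above sham replicate 5. The group means were 4.22 ± 0.13 and 3.94 ± 0.22 (SD, n = 5 each), a difference of −0.28. Fewer cells of a type and less RNA per cell cannot be told apart in such libraries. The 49 genes of the large subunit ran from 4.24 to 4.54 in sham and from 3.87 to 4.46 in pMCAO, and the 26 of the small subunit from 3.61 to 3.99 and from 3.39 to 3.87. The large subunit mean exceeded the small subunit mean by 0.51 to 0.63 in the sham libraries and by 0.47 to 0.66 in the pMCAO libraries, so the ranges of this gap overlapped. Mrps36 entered only the mean of all 76 genes.

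**Figure D1:**
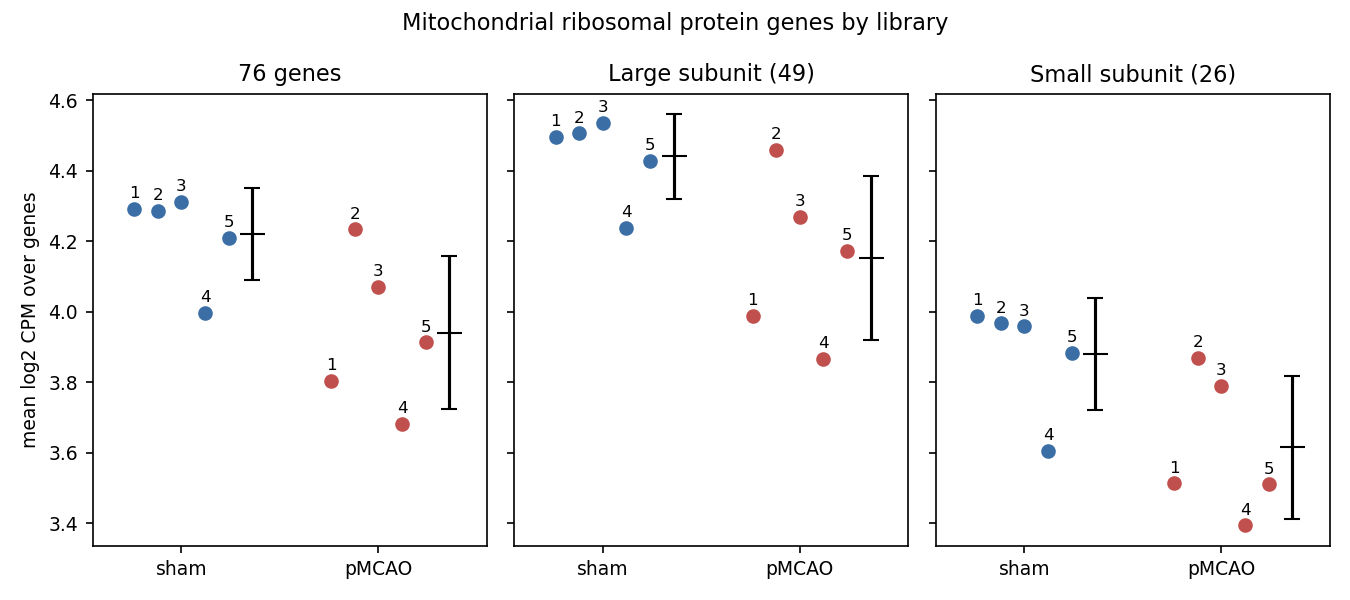
Mean log2 CPM over the 76 mitochondrial ribosomal protein genes, the 49 of the large subunit and the 26 of the small subunit (y axis) in each sham and pMCAO library. Points are libraries with their replicate number, and bars give the group mean and SD. Sham replicate 4 lies below the other sham libraries and pMCAO replicate 2 above the other pMCAO libraries in all 3 panels.

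The libraries did not contribute evenly. The lowest value of a gene over the 10 libraries was in pMCAO replicate 4 for 28 genes, in pMCAO replicate 1 for 14, in sham replicate 4 for 12 and in pMCAO replicate 3 for 10. The highest value was in sham replicates 1 and 2 for 16 genes each and in pMCAO replicate 3 for 11. It was in sham replicate 3 for 10 genes and in pMCAO replicate 2 for 8. Between 19 and 54 of the 76 genes exceeded the sham mean in the sham libraries, and in pMCAO replicates 1 to 5 this number was 14, 47, 29, 9 and 12. So pMCAO replicate 2 resembled the sham libraries in this count, and sham replicate 4 lay within the pMCAO range. The libraries with the lowest total counts in their groups were sham replicate 4 (18894151) and pMCAO replicate 1 (6430643), and both were low in these genes. The lowest mean log2 CPM of the 76 genes, 3.68, was however in pMCAO replicate 4 (11605371 counts). In pMCAO replicate 3 (11299863 counts) the mean was 4.07, and in pMCAO replicate 5 (27004036 counts) it was 3.91. The part of depth in these values was not tested.

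Markers of other cell types also differed among the libraries. T cell markers summed to 212 to 454 CPM in sham and 204 to 317 CPM in pMCAO, with all 8 tested genes at log2 differences below 0 (median −0.62) and 0 at an unadjusted p under 0.05. Cd4 had the highest mean of the 8, at 148 CPM in sham and 134 CPM in pMCAO. It held 179 of the 212 CPM in sham replicate 4, where Cd3e was at 0.818 CPM, and 178 of 209 CPM in pMCAO replicate 3. These low sums were thus mostly 1 gene. Epithelial markers summed to 479 to 1034 CPM in sham and 126 to 1225 CPM in pMCAO (8 of 10 below 0, median −0.49), with the lowest sums in pMCAO replicates 4 and 5, at 126 and 218 CPM. B and plasma cell markers ranged from 1017 to 25555 CPM in sham and from 1310 to 28261 CPM in pMCAO (5 of 8 below 0), and replicate 2 was highest in both groups. Dendritic cell markers summed to 201 to 549 CPM in sham and 150 to 542 CPM in pMCAO (4 of 7 below 0). Itgae alone held 297 of the 549 CPM in sham replicate 5. In pMCAO replicate 5, Itgae and Cd209a held 155 and 205 of the 542 CPM. Stromal and endothelial markers summed to 46.9 to 120 CPM in sham and 26.9 to 86.2 CPM in pMCAO (4 of 7 below 0). The 1 tested granulocyte marker of 7 listed was below 0. The part of these cells in the values of the ribosomal protein genes was not tested.

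In edgeR's quasi-likelihood test with Benjamini-Hochberg adjustment, 0 of the 76 genes passed a false discovery rate (FDR) of 0.05, and the smallest FDR among them was 0.922. The same test called 0% of all 16949 genes. At an unadjusted p under 0.05, 4 of the 76 were lower in pMCAO (background over all tested genes 2.45%) and 0 were higher (background 2.26%). DESeq2 likewise passed 0 of the 76, with 4 lower and 0 higher at an unadjusted p under 0.05, and it called 3 of all genes. At that p in either direction, DESeq2 had 1011 of all 16949 genes, against 799 in edgeR. The log2 difference was below 0 in 65 of the 76 genes (85.5%), against 50.6% of all tested genes. Its median was −0.28 over the 76 and −0.0059 over all tested genes, and it ran from −0.65 (Mrpl12) to 0.37 (Mrpl49). In 1 gene, Mrps24, every pMCAO library lay below every sham library (background 0.537%), and in 0 genes was every pMCAO library above (background 0.448%). Without both pooled libraries 62 of the 76 were below 0 (median −0.21), and without both libraries with Xist counts also 62 (median −0.24). The count of 4 was moved by single libraries, to 16 without pMCAO replicate 2, 11 without sham replicate 4, 10 without pMCAO replicate 3, and 2 each without sham replicate 3 and pMCAO replicate 1. The number at that p over all genes, in either direction, moved as well, from 799 of 16949 to 1268 of 17170 without pMCAO replicate 2, 1181 of 17197 without sham replicate 4, 1011 of 17223 without pMCAO replicate 3, 611 of 17173 without sham replicate 3 and 627 of 17151 without pMCAO replicate 1.

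**Figure D2:**
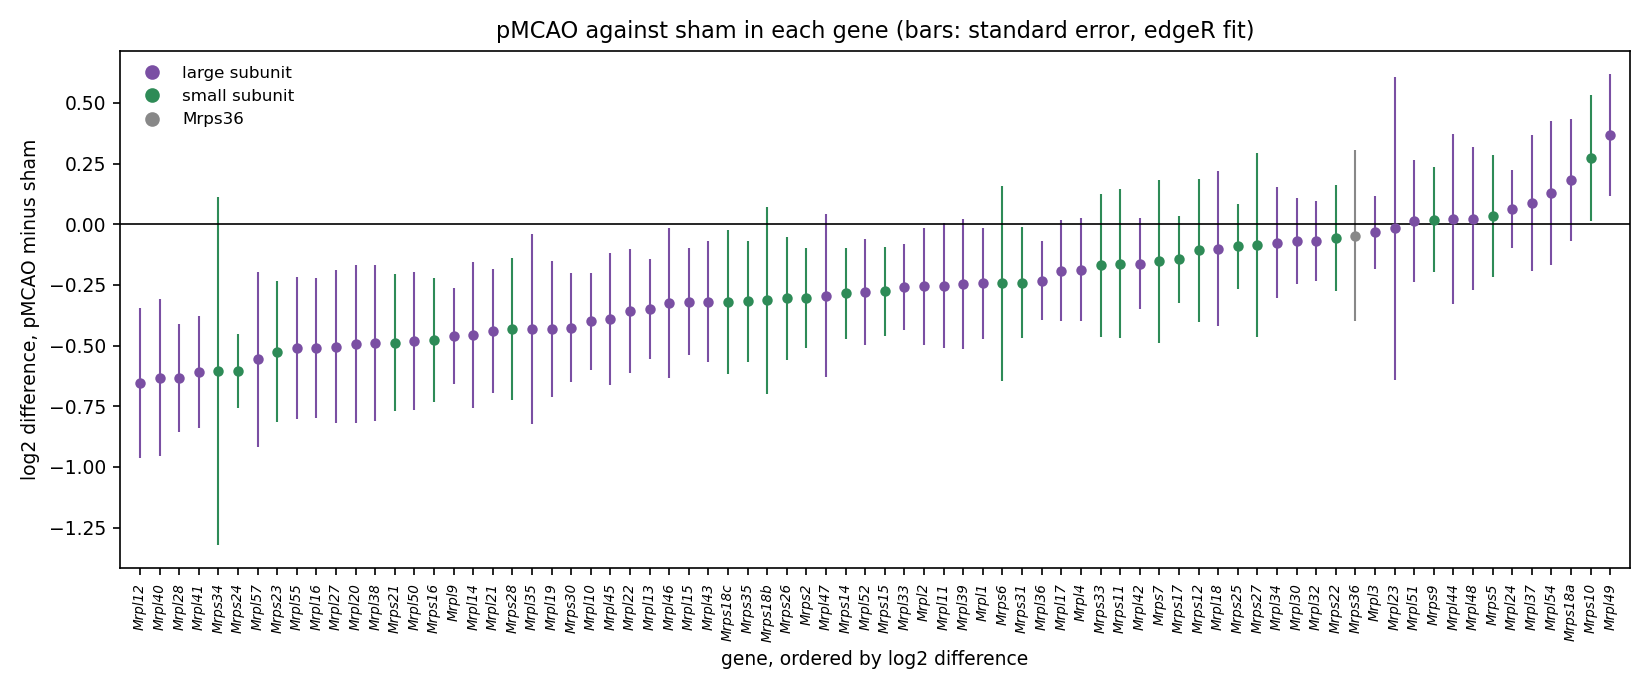
Log2 difference, pMCAO minus sham, of each of the 76 genes (y axis, points), ordered from lowest to highest (x axis), with standard errors of the edgeR fit as bars and colours for the subunit. In 65 genes the point lies below 0, and most bars are wide compared with the distance between neighbouring genes.

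Mrps24 encodes the small subunit protein uS3m, the counterpart of a bacterial protein that lies at the entry of the messenger RNA channel. Its level was 40.5, 44.4, 47.2, 37.1 and 33.8 CPM in sham replicates 1 to 5 and 24.8, 29.0, 27.5, 24.4 and 27.9 CPM in pMCAO replicates 1 to 5. The lowest sham library thus lay above the highest pMCAO library, although the gene's FDR was 0.922. The means were 40.6 ± 5.38 and 26.7 ± 2.00 CPM (SD, n = 5 each). The log2 difference was −0.60 with a standard error of 0.15 and an unadjusted p of 0.00187 in edgeR, from counts between 169 and 2614 per library. Leaving out 1 library at a time gave values from −0.67 to −0.54. Some exons of Mrps24 (chromosome 11, 5703983 to 5715680, minus strand, GRCm38) overlap exons of Urgcp on the same strand, so reads of the overlap could belong to either gene.

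Mrpl28, which encodes the large subunit protein bL28m, was at 31.7, 33.6, 22.5, 32.1 and 24.5 CPM in sham replicates 1 to 5 and at 16.0, 19.98, 25.97, 12.5 and 18.6 CPM in pMCAO replicates 1 to 5. Only pMCAO replicate 3 reached the sham range. The log2 difference was −0.63 (SE 0.22, edgeR unadjusted p = 0.0142, FDR 0.922). Mrpl41, a subunit found only in mitochondrial ribosomes whose protein has also been described in growth control, was at 23.3, 26.3, 27.1, 17.9 and 18.5 CPM in sham and 10.1, 20.6, 14.5, 15.9 and 12.96 CPM in pMCAO. Here pMCAO replicate 2 lay within the sham range and the other 4 below it. Its log2 difference was −0.61 (SE 0.23, edgeR unadjusted p = 0.0211, FDR 0.922).

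Mrpl9, the counterpart of bacterial L9, was at 27.9, 17.5, 29.6, 20.3 and 28.8 CPM in sham and 15.7, 19.4, 19.3, 17.4 and 18.3 CPM in pMCAO. The pMCAO libraries lay close together, and sham replicate 2 lay among them. The log2 difference was −0.46 (SE 0.20, edgeR unadjusted p = 0.0371, FDR 0.922). The exons of Mrpl9 overlap those of Oaz3 on the other strand, and the strand setting of the counting is not given in the sources used here.

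Mrpl10 and Mrpl12 encode partners in the stalk of the large subunit, the flexible arm where translation factors dock, and MRPL12 is also known to bind the mitochondrial RNA polymerase. Mrpl12 was at 24.4, 18.3, 34.7, 13.2 and 26.9 CPM in sham and 13.3, 22.4, 17.9, 8.86 and 12.1 CPM in pMCAO. Its log2 difference of −0.65 was the lowest of the 76, but its groups overlapped and its standard error was 0.31 (edgeR unadjusted p = 0.0546). Mrpl10 was at 21.6, 17.3, 19.7, 15.2 and 16.9 CPM in sham and 13.6, 14.6, 11.02, 12.4 and 17.0 CPM in pMCAO. In this gene only pMCAO replicate 5 reached the sham range, and the log2 difference was −0.40 (SE 0.20, edgeR unadjusted p = 0.0682). Both genes overlap the exons of another gene model on the other strand.

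**Figure D3:**
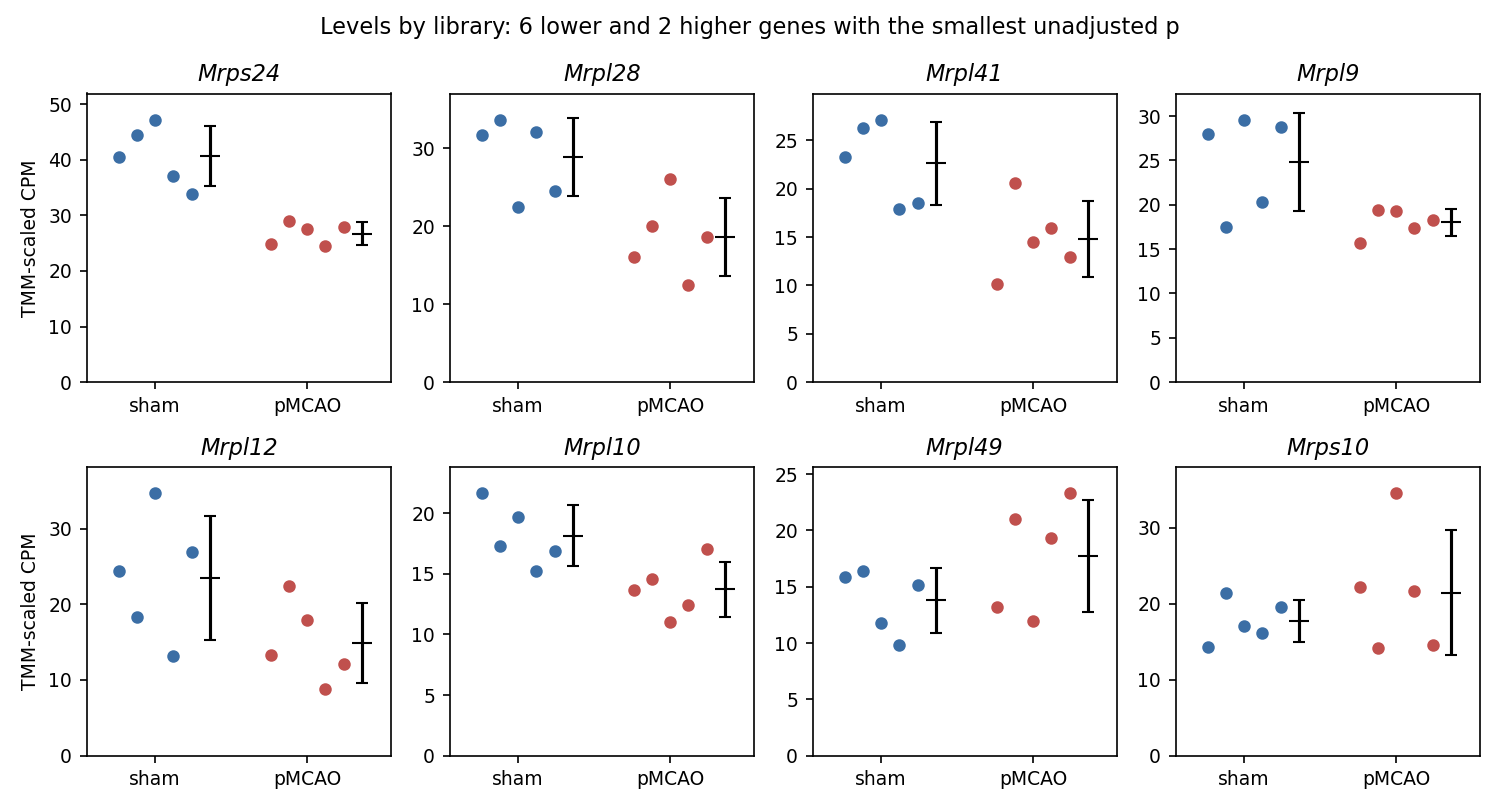
TMM-scaled CPM (y axis) of 8 genes in each sham and pMCAO library, with points for libraries in the order of their replicate numbers and bars for the group mean and SD. The 6 genes with the smallest unadjusted p among those lower in pMCAO (Mrps24, Mrpl28, Mrpl41, Mrpl9, Mrpl12, Mrpl10) and the first 2 among those higher (Mrpl49, Mrps10) are shown, and the groups are apart only in Mrps24.

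Most log2 differences were below 0 in both subunits, and none passed the FDR. The median log2 difference was −0.29 in the large subunit, with 41 of 49 genes below 0, and −0.26 in the small subunit, with 23 of 26 below 0. Among the 30 large subunit genes with bacterial counterparts 29 were below 0 (median −0.31), the exception being Mrpl24 at 0.06. Among the 19 large subunit genes classed as specific to mitochondria 12 were below 0, and their median was −0.28. In the small subunit 13 of 16 genes with bacterial counterparts (median −0.26) and all 10 classed as specific to mitochondria (median −0.27) were below 0. These classes count Mrps18a and Mrps18b as specific, although their proteins are related to bacterial S18, and Mrps18c as the counterpart. The difference between these classes was not tested. With the 31 genes that share exon sequence with another gene model left out, 39 of 45 were below 0 and the median was −0.26.

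Of the 11 genes with a log2 difference above 0, 7 belonged to the large subunit genes classed as specific to mitochondria. Mrpl49 was at 15.9, 16.4, 11.8, 9.81 and 15.1 CPM in sham and 13.2, 21.0, 11.9, 19.3 and 23.3 CPM in pMCAO. Its log2 difference was 0.37 (SE 0.25, edgeR unadjusted p = 0.170), and pMCAO replicates 2, 4 and 5 lay above the sham range. Mrps10, at 17.7 ± 2.81 CPM in sham and 21.5 ± 8.26 CPM in pMCAO (SD, n = 5 each), had its highest value, 34.6 CPM, in pMCAO replicate 3, and its log2 difference moved from 0.27 to 0.028 without that library. The other genes with the smallest p in this direction were Mrps18a (0.18), Mrpl54 (0.13), Mrpl37 (0.09) and Mrpl24 (0.06), each smaller than its standard error. Mrpl54 and Mrpl37 also had their highest values in pMCAO replicate 3, at 26.5 and 38.2 CPM, and without that library their log2 differences were −0.15 and −0.19.

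Levels of the 76 genes differed far more from each other than between the groups. The sham mean ran from 0.993 to 103 CPM, with a median of 20.1 CPM, and 39 genes had a sham mean above 20 CPM while 11 had one below 10 CPM. In pMCAO, 31 genes were above 20 CPM and 13 below 10 CPM. Per kilobase of transcript the highest sham levels were those of Mrpl52 (247 ± 31.4 CPM per kilobase, SD, n = 5), Mrpl33 (163 ± 27.9) and Mrps21 (115 ± 18.7). These 3 genes have short transcripts of 418, 478 and 405 bases. Mrpl52 was at 107, 119.4, 111, 90.7 and 89.1 CPM in sham and 72.4, 113, 107, 47.5 and 86.1 CPM in pMCAO, with overlapping groups and a log2 difference of −0.28 (SE 0.22) that was −0.14 without pMCAO replicate 4. Mrpl33, whose protein bL33m is one of the smallest of the ribosome, was at 78.0 ± 13.3 and 65.3 ± 12.1 CPM (log2 difference −0.26, SE 0.18). Mrps21 was at 46.6 ± 7.57 and 33.2 ± 13.98 CPM (SD, n = 5 each), and its pMCAO values ran from 15.5 CPM in replicate 4 to 49.2 CPM in replicate 2. The log2 difference of Mrps21 was −0.49 (SE 0.28), and −0.32 without pMCAO replicate 4.

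**Figure D4:**
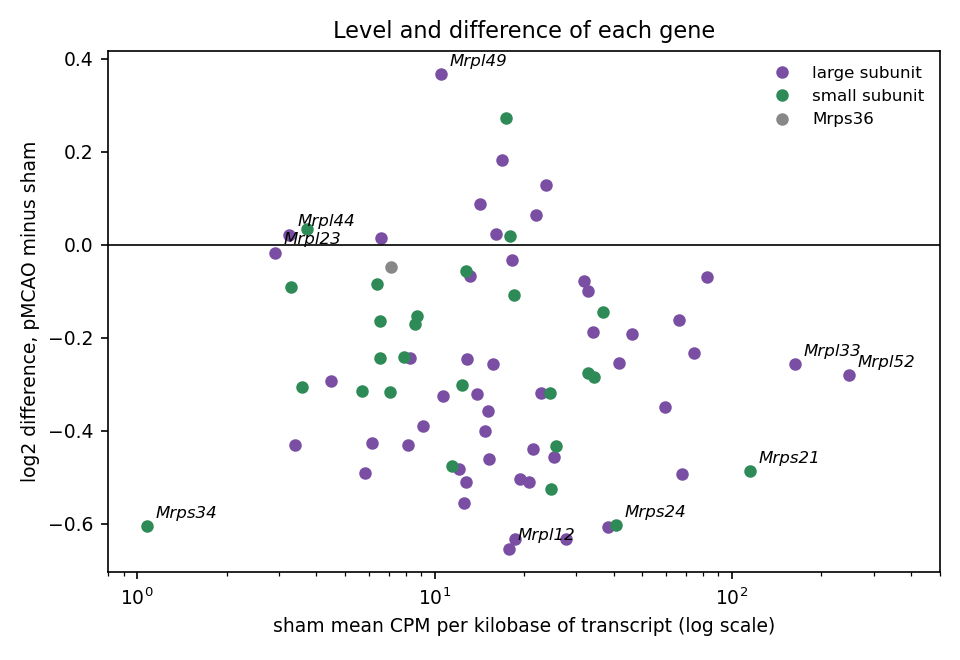
Log2 difference, pMCAO minus sham (y axis), against the sham mean in CPM per kilobase of transcript (x axis, log scale), with 1 point for each of the 76 genes, coloured by subunit. The levels run from 1.08 to 247 CPM per kilobase, and genes below 0 are found along the whole range. The sham values enter both axes.

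The lowest levels per length were those of Mrps34 (1.08 CPM per kilobase), Mrpl23 (2.91) and Mrpl44 (3.24). Mrps34 had counts of 3 to 72 per library and the largest spread within the groups (SD of 0.92 on the log2 scale), and its log2 difference of −0.61 had a standard error of 0.72 and ran from −0.98 without pMCAO replicate 2 to −0.29 without sham replicate 2. Its exons overlap those of Nme3 on the same strand and of Mapk8ip3 on the other strand, and its level is therefore uncertain. Mrpl23 was at 2.02 ± 1.63 CPM in sham and 1.99 ± 1.22 CPM in pMCAO (SD, n = 5 each). It was highest in replicate 4 of both groups, at 4.91 CPM in sham and 4.10 CPM in pMCAO. The pseudogene row Mrpl23-ps1 held 24.7 CPM in sham and 23.9 CPM in pMCAO, so the reads of this gene may be split between near-identical copies. The other pseudogene rows were Mrps36-ps1 at 9.23 CPM, Mrps36-ps2 at 0.841 CPM and Mrpl48-ps at 2.17 CPM in sham. Mrpl44, whose protein is known for its part in assembly of the large subunit, was at 4.62 ± 0.41 CPM in sham and 4.70 ± 1.74 CPM in pMCAO (log2 difference 0.02, SE 0.35). The next largest spreads within groups were those of Mrpl23 (0.81) and Mrpl35 (0.70). Mrpl35 was highest in sham replicate 4 (52.9 CPM) and pMCAO replicate 3 (42.0 CPM), and its log2 difference of −0.43 (SE 0.39) was −0.15 without the first and −0.79 without the other.

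Several proteins of the set are known for particular roles, and their genes were described whatever their p. The 3 paralogs of bacterial S18 were at 12.7 CPM (Mrps18a), 4.59 CPM (Mrps18b) and 15.6 CPM (Mrps18c) in sham and at 14.4, 3.71 and 12.5 CPM in pMCAO. Their log2 differences were 0.18 (SE 0.25), −0.31 (SE 0.39) and −0.32 (SE 0.30), so that none was beyond 2 standard errors. Mrps30, a large subunit gene also known by an apoptosis-related alias, was at 20.5 ± 1.77 CPM in sham and 15.2 ± 4.37 CPM in pMCAO (log2 difference −0.43, SE 0.22). The values of Mrps30 in pMCAO replicates 1 to 5 were 9.82, 20.5, 12.1, 15.1 and 18.4 CPM, and replicates 2 and 5 lay within the sham range. Mrpl45, whose protein anchors the ribosome at the inner membrane, had a log2 difference of −0.39 (SE 0.27), and −0.18 without sham replicate 4, where its level was highest at 21.1 CPM. Mrps12, the counterpart of bacterial S12 of the decoding centre, and Mrps22, which is specific to mitochondria, had log2 differences of −0.11 (SE 0.30) and −0.06 (SE 0.22). Mrps36, the gene outside both subunits, was at 4.53 ± 0.75 and 4.38 ± 1.46 CPM (SD, n = 5 each), with a log2 difference of −0.05 (SE 0.35). Its pseudogene rows Mrps36-ps1 and Mrps36-ps2 had log2 differences of −0.38 (SE 0.29) and −0.95 (SE 0.80). Mrps36-ps1 was at 9.23 CPM in sham, above Mrps36 itself. As for Mrpl23, reads may be split between copies, so the level and difference of Mrps36 are uncertain.

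The ribosome holds further proteins whose genes have other symbols, and 6 such genes were tested. In 5 of the 6 the log2 difference was below 0, with a median of −0.42, 2 had an unadjusted p under 0.05 and 0 passed the FDR. Aurkaip1 was at 39.3, 42.5, 45.6, 45.3 and 34.4 CPM in sham and 22.7, 38.6, 24.8, 19.4 and 20.7 CPM in pMCAO. In Aurkaip1 only pMCAO replicate 2 reached the sham range, and the log2 difference was −0.71 (SE 0.21, edgeR unadjusted p = 0.00467, FDR 0.922). Ict1, the gene now named Mrpl58, encodes a peptidyl-tRNA hydrolase built into the large subunit that releases stalled chains. Its log2 difference was −0.59 (SE 0.27, edgeR unadjusted p = 0.0492), with 19.3 ± 4.68 and 12.8 ± 4.26 CPM (SD, n = 5 each) and overlapping groups. Gadd45gip1 (−0.44, SE 0.39), Chchd1 (−0.40, SE 0.31) and Ptcd3 (−0.01, SE 0.20) overlapped as well. Dap3, which encodes a GTP-binding protein of the small subunit, was at 27.2 ± 8.08 CPM in sham and 37.0 ± 8.07 CPM in pMCAO, a log2 difference of 0.44 (SE 0.24) that was 0.29 without sham replicate 4.

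Genes of the machinery around the ribosome were listed by known function. Of 24 tested genes for ribosome assembly factors 18 were below 0 (median −0.21), with 0 at an unadjusted p under 0.05 in either direction. The smallest p of this list belonged to Rbfa, a factor of small subunit maturation (−0.44, SE 0.22), and, in the other direction, to the GTPase gene Mtg1 (0.34, SE 0.36). Of 15 tested translation factor genes 11 were below 0 (median −0.13). Slirp, a partner of Lrpprc in messenger RNA stability, was at −0.44 (SE 0.21). Oxa1l, which encodes the insertase that receives nascent chains at the inner membrane, was the 1 gene of this list with an unadjusted p under 0.05. Oxa1l was at 43.4, 49.8, 40.4, 29.5 and 45.3 CPM in sham and 59.5, 60.8, 58.7, 48.9 and 59.0 CPM in pMCAO, so that only pMCAO replicate 4 lay within the sham range. Its log2 difference was 0.46 (SE 0.16, edgeR unadjusted p = 0.0158, FDR 0.922).

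For mitochondrial tRNA charging, 10 of 20 genes were below 0 (median 0.04) and 0 had an unadjusted p under 0.05. Its named genes were Rars2 (0.52, SE 0.28), which was highest in pMCAO replicate 3 at 54.3 CPM and had a log2 difference of 0.14 without that library, and Vars2 (−0.47, SE 0.34). For mitochondrial DNA maintenance and transcription, 6 of 13 genes were below 0 (median 0.02). Hsd17b10, a subunit of mitochondrial ribonuclease P, was at 18.4 ± 6.43 and 10.9 ± 3.64 CPM (log2 difference −0.75, SE 0.31, edgeR unadjusted p = 0.0307). Polg2, the accessory subunit of the mitochondrial DNA polymerase, was at 40.9 ± 11.7 and 63.6 ± 26.01 CPM (SD, n = 5 each; log2 difference 0.63, SE 0.30, and 0.41 without pMCAO replicate 4). None of these lists had a gene past the FDR. Other lists gave values in the same direction as the ribosomal protein genes. The nuclear genes of complex I were below 0 in 35 of 36 (median −0.42), those of cytosolic ribosomal proteins in 71 of 84 (median −0.23), and the mitochondrially encoded messenger RNAs in 12 of 13 (median −0.14). The mitochondrially encoded messenger RNAs nevertheless took a mean of 3.12% of all counts in sham and 3.15% in pMCAO. Their smallest edgeR unadjusted p was 0.243, and their mean log2 CPM was highest in sham replicate 4, at 7.89. These lists were compared with the same 10 libraries, and differences between lists were not tested.

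The 76 genes have short transcripts, with a median of 1052 bases against 1833 bases over the table (median over the protein-coding transcripts of each gene). Of them, 56 were below the median of the table, and 24 (31.6%) were in the shortest 20% of tested genes, at 801 bases or less. Among these shortest genes 56.8% of 3375 tested genes had a log2 difference below 0 (median −0.08), whereas in the longest 20% it was 40.4% of 3373 (median 0.07). Within the 76 genes, Spearman's rho between length and log2 difference was 0.025, a description across genes that share the same libraries. Those at or below their own median length had a median difference of −0.27, and those above it −0.29. With the trend of log2 CPM on transcript length removed in each library, 57 of the 76 were below 0 with a median of −0.19, beside 45.4% of all tested genes and a median of 0.04.

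A head-to-head arrangement, in which a protein-coding gene starts on the opposite strand within 1000 bases, was found for 33 of the 76 genes (43.4%), against 15.6% of the 13162 protein-coding genes of the table. Mrpl46 and Mrps11 are such a pair with both genes in the set, named here after their values were seen. Their starts are 412 bases apart, each inside the other gene, and their exons overlap on opposite strands. Their log2 differences were −0.33 and −0.16. In 27 pairs the neighbour was tested and was no member of the set. In these pairs 20 of the ribosomal protein genes and 16 of the neighbours were below 0, with medians of −0.23 and −0.04. The sign was shared in 19 of the 27 pairs. Neighbours with overlapping exons can share reads, and this comparison has no test.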

How the data were processed

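The libraries were 5 sham and 5 pMCAO samples of sorted lamina propria macrophages. The deposited table gives raw counts for each gene as whole numbers and also holds the authors' own CPM values, fold changes and p-values, which were not used. Per the labels, ribosomal RNA was removed and libraries were made with the Trio kit from 2.0 ng of total RNA and sequenced as paired ends. The submitters' processing notes name STAR, featureCounts, limma and the builds GRCm38 and mm10. Versions, annotation, strand setting and filter are not given in the sources used here. The lowest value of a listed gene in its second-highest library was 10 counts.

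Counts were fitted with edgeR 4.0.16 (R 4.3.3; filterByExpr, TMM, quasi-likelihood test, all 10 libraries), with Benjamini-Hochberg adjustment over 16949 genes and an FDR threshold of 0.05. CPM are TMM-scaled, and log2 CPM use a prior count of 2. The 76 genes held 9357 to 136920 counts per library, and p-values measure the spread between samples that the labels call biological replicates. No pair of libraries agreed within sampling noise (a chi-square of at least 39.5 per degree of freedom over 16169 genes). The fit was also run on simulated data, where it recovered a minority of the genes given a known change, so a gene that missed the FDR is not shown to be unchanged. Transcript lengths, exon overlaps and neighbours came from the GENCODE annotation of GRCm38, and promoters from RefSeq (GRCm38.p6).

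The members and gene lists were chosen with earlier results of these data known. Named genes were those ranked 1 to 6 by unadjusted p among lower and among higher genes, the 3 highest and 3 lowest in sham CPM per kilobase, the 3 with the largest spread within groups, 11 genes by role, all other subunit genes, and 1 gene for either direction per further list, by smallest p. Cell type marker lists were described by summed levels and by counts and medians of log2 differences. Alternatives were DESeq2 1.42.0, limma-voom (limma 3.58.1) with and without quality weights, 2 normalizations, 2 filters, a replicate block, removal of the length trend, and fits without single, pooled or Xist-positive libraries.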

Additional observations from a re-analysis of the deposited data

Results flagged for a closer look

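The mean log2 CPM over the 26 small subunit genes was low in sham replicate 4 (3.61, against 3.88 to 3.99 in the other 4 sham libraries). Its gap to the nearest library was 0.724 of the group's range, above the limit of 0.71 for 5 libraries. Among 60 groups checked this was the only such library, where about 3 would be found by chance (1 in 20), and the measures overlap in their genes. Sham replicate 4 also had the lowest total count of the sham group (18894151), and the part of depth was not tested.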

How the results depend on the processing

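The number of the 76 genes past the FDR was 0 under all 21 alternatives, and that of all tested genes was 0 under each of them except DESeq2, which called 3 (cause not tested). The median log2 difference of the 76 genes stayed below 0, between −0.37 (limma-voom with quality weights) and −0.19 (length trend removed), and the number of genes below 0 was between 57 and 69. Each library left out in turn gave medians from −0.36 to −0.23 and 61 to 69 genes below 0. The number lower at an unadjusted p under 0.05 was 22 with quality weights, 1 without both pooled libraries, 1 with the length trend removed, and 2 to 16 with single libraries left out. Over all genes and in either direction, the number at that p went from 799 to 1888 with quality weights. It was 462 without both pooled libraries and 703 with the length trend removed. The filter of more than 1 CPM in 5 libraries kept 75 of the 76 genes and left out Mrps34. The difference of library means was between −0.28 and −0.26 under the 3 scoring alternatives. Depth limits the lowest genes, such as Mrps34 with 3 counts in pMCAO replicate 1 (6430643 counts in all).

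Replicate numbers were not taken to pair the samples, since the labels name no shared animal, day or batch and 2 of the 5 correlations between deviations of same-numbered libraries were under 0.1. They were 0.046, 0.34, −0.0055, 0.23 and 0.37 (mean 0.197), and 5 of 10 libraries correlated best with their own number, a hint of pairing from the data and not from the design. With the replicate block, 0 of the 76 genes passed the FDR (smallest 0.597), and 66 were below 0 with a median of −0.28. At an unadjusted p under 0.05, 8 of the 76 were lower, and 1303 of all genes were at that p in either direction. The smallest FDR over all genes was 0.173, against 0.922 without the block.

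Leaving out 1 library moved the log2 difference by over 1.5 times in 26 of the 40 named genes. Values near 0 changed sign in 8 named genes. DESeq2 gave 0.0083 for Mrpl23 and 0.0083 for Ptcd3. Limma-voom gave −0.024 for Mrpl54, 0.068 for Mrpl23, −0.080 for Mrpl44, 0.030 for Mrps12 and 0.035 for Ptcd3, and with quality weights −0.12 for Mrpl54, −0.094 for Mrpl37, 0.29 for Mrpl23, −0.095 for Mrpl44 and 0.23 for Ptcd3. Upper-quartile normalization gave 0.023 for Mrpl23 and 0.012 for Ptcd3, and DESeq2 size factors 0.0064 and 0.0078. The replicate block gave 0.073 for Mrpl23, −0.046 for Mrpl44 and 0.0086 for Ptcd3. Without both pooled libraries Mrps12 was at 0.015, and without both libraries with Xist counts Ptcd3 was at 0.036. With the length trend removed Mrpl23 was at 0.042, Mrps36 at 0.043 and Mrps22 at 0.078. With single libraries left out, Mrpl54 ran from −0.15 to 0.25, Mrpl37 from −0.19 to 0.22, Mrpl23 from −0.47 to 0.60, Mrpl44 from −0.20 to 0.15, Mrps36 from −0.25 to 0.054, Mrps12 from −0.29 to 0.0078, Mrps22 from −0.16 to 0.030 and Ptcd3 from −0.11 to 0.13. The cause of these changes was not tested.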
